A study of Mus musculus with 3 samples.

Results

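The axon guidance genes described here are the semaphorins, plexins, neuropilins, ephrins, Eph receptors, netrins, netrin-Gs, Slits, Robo receptors and Unc5 receptors of the mouse nucleus accumbens. They were chosen by gene symbol and by a total of at least 10 UMIs (molecular tags that count each captured RNA molecule once) over all cells. Of 28001 features, 74 matched the names and 68 reached the minimum. They comprise 20 semaphorins, 9 plexins, 2 neuropilins, 8 ephrins, 14 Eph receptors, 2 netrins, 1 netrin-G, 3 Slits, 4 Robo receptors, 4 Unc5 receptors and the antisense transcript Plxna4os1. Just above the minimum were Epha1 with 11 UMIs, Efna4 with 17 and Sema3b with 31. Just below it were Ntng2 with 5 UMIs and Ntn5 with 8. The other features that matched by name, which are further entries of Ntn5 and the antisense transcripts Plxna4os2 and Plxna4os3, had 0.

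The cells came from 3 samples of a single group of Thy1::ChR2 mice, which carry the light-gated channel channelrhodopsin under the Thy1 promoter. All 3 were labelled with FLiCRE, a tool that turns coincident calcium and light into reporter RNA, while ChR2 in the nucleus accumbens was stimulated, and the tissue was a coronal dissection 400 um thick. No unstimulated group was analysed here and ages are not given in the labels, so cell classes were compared within the same libraries. The 3 libraries, named 1 to 3 by the suffix of their cell barcodes, cannot be tied to the numbered replicates. Nothing in the labels says whether they came from separate animals, so p-values measure the spread between these libraries.

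Axon guidance genes encode secreted or membrane-bound ligands and the receptors that read them at the growth cone. Semaphorins signal through plexins, and most of the secreted class 3 semaphorins also need a neuropilin. Ephrins bind Eph receptor tyrosine kinases at cell contacts, netrins bind Dcc and Unc5 receptors, and Slits bind Robo receptors. In the adult brain the same families act at synapses, in myelinating glia and in blood vessels. The adult nucleus accumbens is made mostly of spiny projection neurons, which express either the D1 or the D2 dopamine receptor.

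Promoters of 4 genes are shown because the levels of these genes set vascular and myelinating cells apart below: Robo4 and Sema3g in endothelial cells, Unc5b in oligodendrocytes, and Plxnb3 in oligodendrocytes and their precursors. Each is the window from 250 bases before to 50 after a RefSeq transcript start (GRCm38.p6, the patch release of mm10), written 5′ to 3′ in the direction of transcription. Robo4, on chromosome 9 (chr9:37401902-37414023), encodes the Robo receptor of endothelial cells, and Sema3g, on chromosome 14 (chr14:31217873-31230352), a secreted semaphorin. Plxnb3, on the X chromosome (chrX:73756556-73772510), encodes a plexin, and Unc5b, on chromosome 10 (chr10:60762594-60831581), a netrin receptor. The window of Robo4 is chr9:37401722-37402021 (plus strand), that of Sema3g chr14:31217623-31217922 (plus), that of Plxnb3 chrX:73756853-73757152 (plus) and that of Unc5b chr10:60831532-60831831 (minus).
Robo4: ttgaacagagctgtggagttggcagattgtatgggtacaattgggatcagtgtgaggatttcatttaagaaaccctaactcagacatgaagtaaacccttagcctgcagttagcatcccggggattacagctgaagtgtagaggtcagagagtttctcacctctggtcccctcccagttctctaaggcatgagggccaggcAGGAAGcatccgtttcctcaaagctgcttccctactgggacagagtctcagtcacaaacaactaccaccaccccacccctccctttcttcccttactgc
Sema3g: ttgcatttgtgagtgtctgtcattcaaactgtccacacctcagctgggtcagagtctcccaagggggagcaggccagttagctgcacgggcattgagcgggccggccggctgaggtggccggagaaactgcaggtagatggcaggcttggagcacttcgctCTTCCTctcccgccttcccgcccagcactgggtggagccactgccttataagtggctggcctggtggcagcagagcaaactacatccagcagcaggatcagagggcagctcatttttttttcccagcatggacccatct
Plxnb3: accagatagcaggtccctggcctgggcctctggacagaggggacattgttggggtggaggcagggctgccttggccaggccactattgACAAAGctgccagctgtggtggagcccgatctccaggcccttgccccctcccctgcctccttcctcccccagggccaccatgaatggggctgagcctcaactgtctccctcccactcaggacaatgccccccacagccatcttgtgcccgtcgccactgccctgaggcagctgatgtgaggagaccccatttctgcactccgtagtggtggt
Unc5b: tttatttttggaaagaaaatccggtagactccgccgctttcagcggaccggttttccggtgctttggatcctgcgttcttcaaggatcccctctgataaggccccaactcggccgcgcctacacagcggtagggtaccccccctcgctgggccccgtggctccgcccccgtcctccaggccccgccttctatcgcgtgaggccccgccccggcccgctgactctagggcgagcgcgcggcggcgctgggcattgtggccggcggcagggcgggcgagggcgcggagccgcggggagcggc
Capitals mark AGGAAG, a core of ETS factor motifs, in the first pair and ACAAAG, a core of SOX factor motifs, in the second pair. Each was searched on both strands and marked in its own pair only. The Plxnb3 window also holds CTTCCT, left in lower case, so AGGAAG is not particular to the first pair. The Robo4 and Sema3g windows each held 1 AGGAAG (the latter on the opposite strand, read as CTTCCT), a motif found in 35.4% of the 32851 RefSeq windows of this length. The Plxnb3 window held 1 ACAAAG and the Unc5b window held 0, against 18.7% of all windows. The Unc5b window was also the richest in G and C, at 69.7%, with 36 CpG pairs against 2 in Robo4, 8 in Sema3g and 4 in Plxnb3. A match describes these letters and not a bound site.

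Levels are given in CPM, UMI counts scaled to 1e+06 in all: the UMIs of a gene in all cells of a class, summed within a library and divided by that class's total. The 3′ protocol counts molecules rather than fragments, so CPM needs no division by transcript length. Classes were gated on marker genes, none of which is an axon guidance gene, and their names mean only that the cells resemble that type by those markers (D1-like, endothelial-like and so on). Of 10291 cells kept after filtering (median 993, 2123 and 2705 UMIs in libraries 1, 2 and 3), 7911 passed the gate: 4412 neurons and 3499 other cells. The neurons included 1536 D1 and 973 D2 spiny neurons, 209 spiny neurons with Tshz1 and Pcdh8 markers and 219 glutamatergic neurons. The other cells included 808 astrocytes, 1382 oligodendrocytes, 67 oligodendrocyte precursors (OPC), 207 microglia, 264 macrophages with MHC class II genes, 428 endothelial cells and 257 mural cells.

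The class labels held against defining markers with 1 exception. Drd1 stood at 920.1, 527 and 646 CPM in D1 neurons of libraries 1, 2 and 3 and at 0, 8.82 and 5.37 in D2 neurons, whereas Drd2 had only 7 UMIs in D2 neurons, which therefore rest on Penk, Adora2a, Gpr6 and Sp9. Penk was at 7893 CPM on average in D2 and 621 in D1 neurons. Transcripts of spiny neurons were also found in cells of other classes. The summed spiny markers reached 0.911% to 2.62% of their spiny level in the 7 larger non-neuronal classes of library 1, 7.85% to 13.1% in library 2 and 1.45% to 3.94% in library 3. The few T cells had up to 20.1% and the few fibroblasts up to 13.5%, both in library 2, so a neuronal gene at or below those shares in glia is read as background. Summed markers of all neurons had larger shares of their neuronal level in 2 sparse classes. They were at 8.51%, 14.9% and 13.9% in mural cells of libraries 1, 2 and 3 and at 5.11%, 10.6% and 8.93% in OPC. Pairs of libraries shared 13, 7 and 22 barcode sequences.

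**Figure D1:**
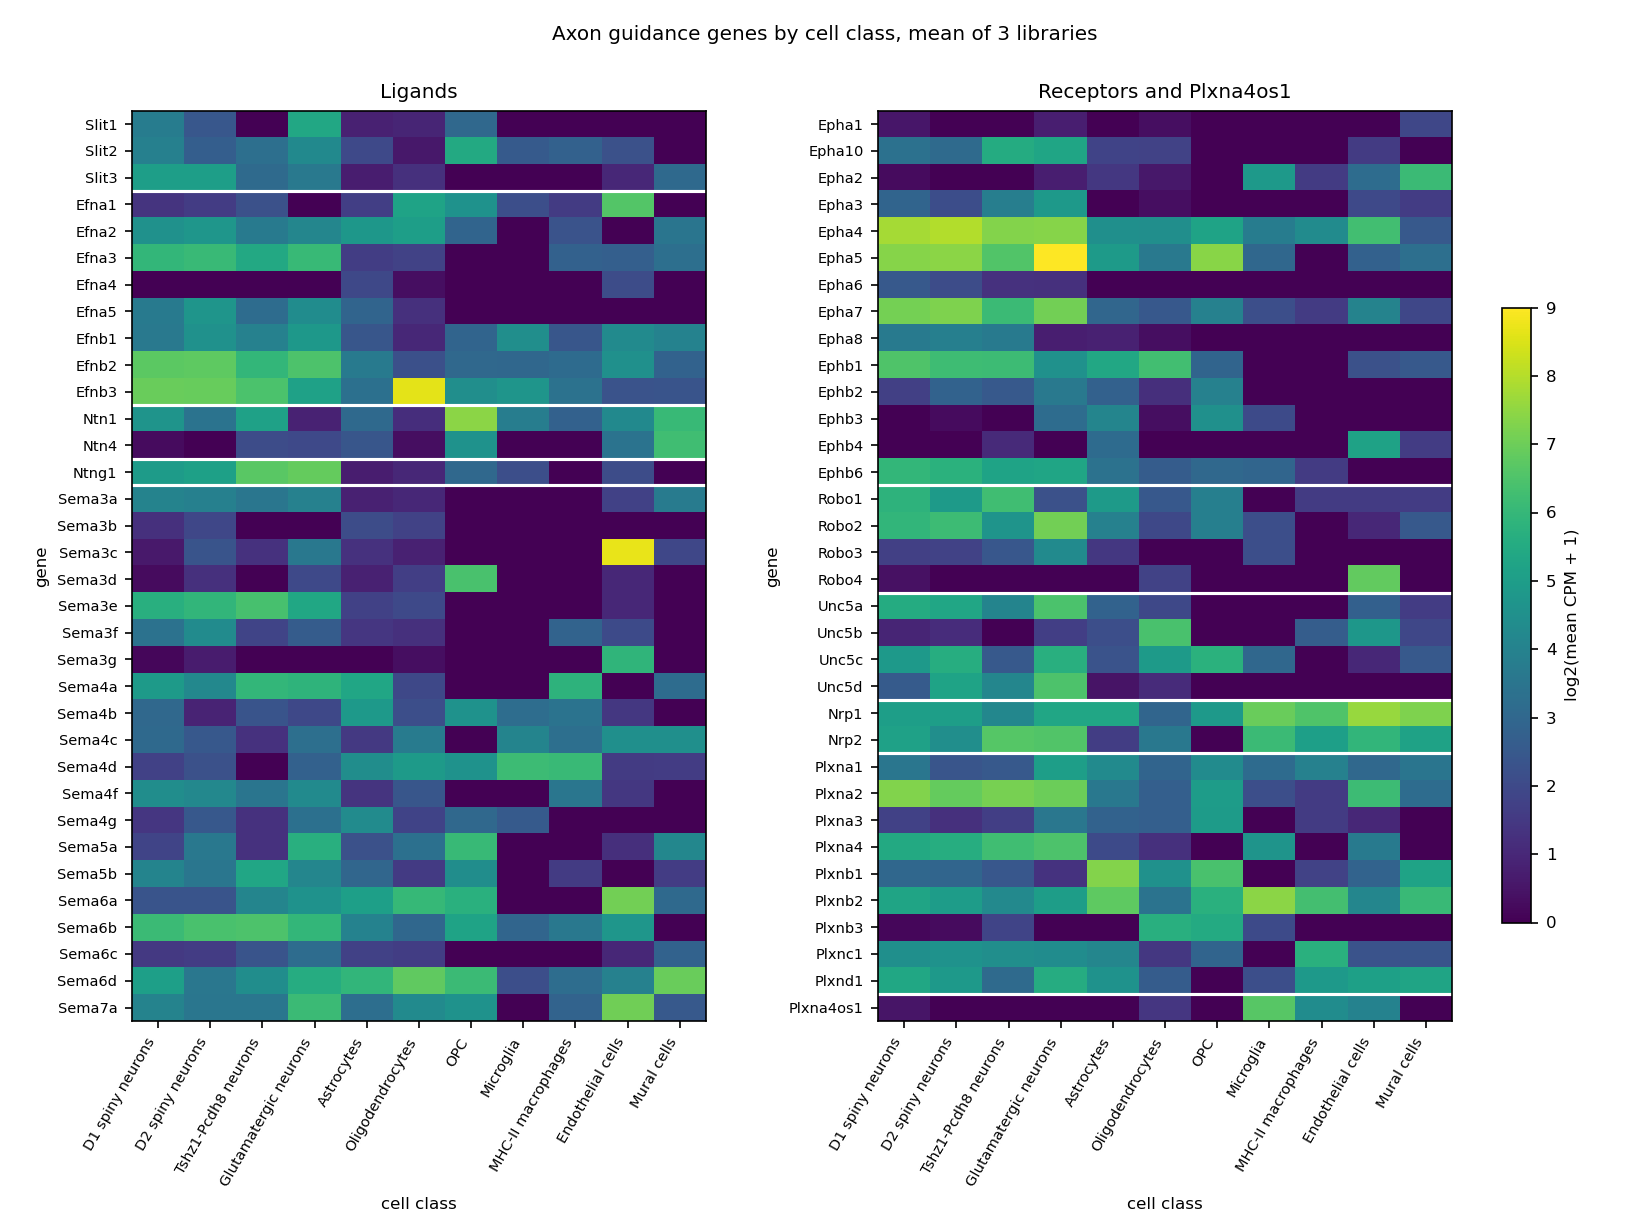
Mean level of 68 axon guidance genes (rows) in 11 cell classes (columns), as log2(CPM + 1) over 3 libraries. The brightest tiles are Epha5 in glutamatergic neurons, Sema3c in endothelial cells and Efnb3 in oligodendrocytes.

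Across the 11 classes with at least 10 cells in each library, 39 axon guidance genes had enough counts to test, and all 39 differed between classes at an edgeR adjusted p under 0.05, against 87.2% of the 8774 genes tested. The 39 passed a filter on low counts that a gene can meet through 1 class alone, and 29 did not pass it. Against the mean of the other classes, 139 of 429 pairs of a class and an axon guidance gene were raised (32.4%), with 21.6% for all genes. The 4 neuron classes held most of them: 21 in D1 neurons (30.3% of all genes were raised there), 20 in D2 (29.9%), 19 in Tshz1-Pcdh8 (18.8%) and 21 in glutamatergic neurons (27.2%). Endothelial cells had 15 (23.7%) and oligodendrocytes 12 (28%). Astrocytes had 8 (27.3%), microglia 7 (15.8%), mural cells 6 (13.4%), OPC 5 (6.1%) and macrophages 5 (16.6%). Each count is out of 39, and each percentage is the share of all genes. Astrocytes and macrophages lay below that share, and oligodendrocytes, microglia and mural cells lay near it. Without library 3, 12 genes were raised in Tshz1-Pcdh8 neurons and 2 in OPC, and without library 2, 3 in OPC. In the other classes leaving out a library moved the count by less than 1.5 times.

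The families had their highest sums in different classes. Summed over the 14 Eph receptors, neurons held 754 ± 56.2 CPM (SD, n = 3) and non-neuronal cells 122 ± 10.8. Glutamatergic neurons had the highest such sum, 968 ± 258, and macrophages the lowest, 25.3 ± 24.2. The 20 semaphorins summed to 818 ± 242 CPM in endothelial cells, above the 343 ± 63.4 of neurons. The 8 ephrins summed to 472 ± 111 CPM in oligodendrocytes, a value carried by Efnb3. The 2 netrins reached 193 ± 153 CPM in OPC and 139.8 ± 12.4 in mural cells, against 15.8 ± 5.57 in neurons.

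Neurons and non-neuronal cells differed in most axon guidance genes that could be tested, with Eph receptors, Slits and most Robo and Unc5 receptors higher in neurons and the plexin-B receptors Plxnb1, Plxnb2 and Plxnb3 lower. Of 58 tested, 31 were higher and 18 lower in neurons, together 84.5%, against 64.4% of 12124 genes (30.7% higher and 33.7% lower). The median log2 fold change of the 58 was 0.96, and that of all genes -0.05. The gene with the largest fold change toward neurons was Unc5d, one of the repulsive netrin receptors, at 28, 30.8 and 52.5 CPM in neurons of libraries 1, 2 and 3 and 0.663, 0.977 and 0 in other cells (5.47 ± 0.52 on the log2 scale, SE, with an edgeR adjusted p of 2e-05). Ntng1, a netrin-G that is anchored in the axon membrane, stood at 28, 50.1 and 84.5 CPM against 0.663, 2.60 and 0.458 (4.85 ± 0.43 on the log2 scale, SE, with an edgeR adjusted p of 2.09e-05). In both genes every neuronal value lay above every non-neuronal one. Both passed the low-count filter through neurons alone, which limits what their direction shows. Other genes given below did so too, among them Sema3e, Efna3, Slit1, Slit2 and Slit3. Efna1, Plxnb3, Robo4, Sema3g and Ephb4 passed it through non-neuronal cells alone. The same limit holds for all of these, and for the counts and the median above.

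Among the Eph receptors 7 of 9 tested were higher in neurons and 1, Ephb4, was lower, against 30.7% and 33.7% of all genes. Epha5 stood at 190.3, 217 and 332 CPM in neurons and 10.6, 20.8 and 16.5 in other cells (3.48 ± 0.24 on the log2 scale, SE, with an edgeR adjusted p of 1.41e-05), and Epha7 at 119, 142 and 128 against 3.31, 11.7 and 3.67 (3.99 ± 0.31 on the log2 scale, SE, with an edgeR adjusted p of 2e-05). Epha4, which binds ephrins of both the A and the B class, was at 214 and 26.5 CPM on average, a log2 fold change of 2.57 (edgeR adjusted p = 1.94e-05). Epha8 rested on 3 UMIs outside neurons, and the ratio of pooled levels was 27.3 (95% counting interval 9.16 to 134). Epha3 was also higher in neurons, by 3.54 (edgeR adjusted p = 0.00119) on the log2 scale. Their ligands followed 2 patterns. Efna3, a membrane-anchored ephrin-A, was higher in neurons by 3.93 (edgeR adjusted p = 0.000161), as were Efna5, Efnb1 and Efnb2, whereas Efna1 and Efnb3 were lower, with log2 fold changes of -3.64 (edgeR adjusted p = 4.07e-05) and -1.25 (edgeR adjusted p = 0.0018). For Efnb3 only oligodendrocytes, at 396 CPM on average, lay above the 105 of neurons. The other tested non-neuronal classes lay below neurons, from 3.93 in endothelial cells to 24.6 in microglia.

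All 3 Slits were higher in neurons, Slit3 by 3.59 (edgeR adjusted p = 5.62e-05), Slit1 by 3.29 (edgeR adjusted p = 0.00281) and Slit2 by 1.83 (edgeR adjusted p = 0.00222) on the log2 scale. Of the Robo family, Robo1, Robo2 and Robo3 were higher in neurons too, while Robo4 was lower. Robo2 stood at 40.3, 83.4 and 98.9 CPM in neurons against 3.31, 7.82 and 5.04. Robo4 stood at 0, 0.511 and 0 against 16.6, 10.4 and 16, with 4 UMIs in all neurons. Robo3 and Robo4 lie 2.02 kb apart on chromosome 9, and their highest classes differed, with Robo3 at 18.6 ± 0.665 CPM (SD, n = 3) in glutamatergic neurons and Robo4 at 113 ± 35.3 CPM (SD, n = 3) in endothelial cells. Robo3 had 0 UMIs in endothelial cells and Robo4 0 in glutamatergic neurons.

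Semaphorins and plexins were split. Of 17 semaphorins tested, 7 were higher and 8 lower in neurons, with a median of -0.43. Of all genes, 30.7% were higher and 33.7% lower. The 9 plexins tested, with 3 higher and 3 lower, lay near those shares. Sema3e, a secreted ligand of Plexin-D1, was at 61.6, 47 and 48.7 CPM in neurons and 1.32, 2.93 and 2.29 elsewhere (4.02 ± 0.30 on the log2 scale, SE, with an edgeR adjusted p of 1.8e-05). Sema3c and Sema3g lay on the other side: Sema3c at 4.48, 1.92 and 5.45 against 23.2, 37.1 and 86.6 CPM (-4.23 ± 0.32 on the log2 scale, SE, with an edgeR adjusted p of 1.63e-05), and Sema3g with 2 UMIs in neurons against 48, a ratio of 40.1 (95% counting interval 10.5 to 340.0). Both Sema3e and Sema3c lie on chromosome 5, 3318 kb apart. Of 9 plexins, Plxna2, Plxna4 and Plxnd1 were higher in neurons, Plxna4 by 3.54 (edgeR adjusted p = 2.05e-05), and Plxnb1, Plxnb2 and Plxnb3 were lower, with log2 fold changes of -5.68 (edgeR adjusted p = 1.24e-05) for Plxnb3 and -3.28 (edgeR adjusted p = 9.99e-05) for Plxnb1. The plexin-A subfamily, which pairs with neuropilins, had no lower gene that passed and the plexin-B subfamily no higher one. Unc5b had a log2 fold change of -4.83 (edgeR adjusted p = 1.21e-05), whereas Unc5a, Unc5c and Unc5d were higher in neurons. Sema4d, a ligand of Plexin-B1, was lower too, at -2.96 (edgeR adjusted p = 3.96e-05), and so was Plxna4os1, at -3.84 (edgeR adjusted p = 0.000504). Of the neuropilins Nrp1 was lower, at -1.31 (edgeR adjusted p = 0.000686), and Nrp2 did not pass, at 0.63 (edgeR adjusted p = 0.217). Ephb4, the venous receptor of ephrin-B2, had 2 UMIs in neurons and 41 elsewhere, and its ratio was 34.2 (95% counting interval 8.89 to 292).

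**Figure D2:**
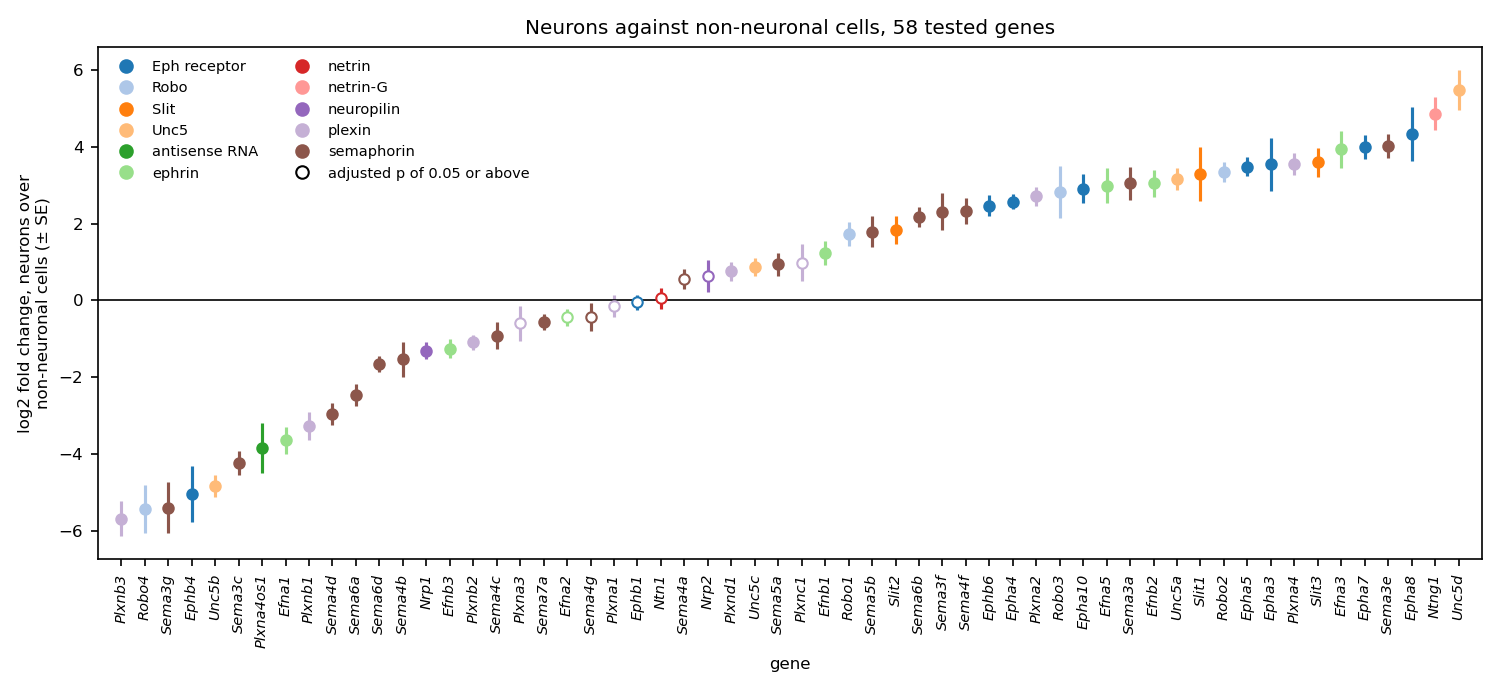
Log2 fold change of neurons over non-neuronal cells (y axis, ± SE) for the 58 axon guidance genes tested, ordered by value and coloured by family; filled points passed an edgeR adjusted p of 0.05. The values run from Plxnb3 at -5.68 to Unc5d at 5.47.

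Among 50 other guidance genes (receptors such as Dcc, adhesion molecules and growth cone effectors), 47 were tested in the same comparison. Of these 23 were higher and 9 lower in neurons, together 68.1%. Of all genes 30.7% were higher and 33.7% lower, together 64.4%. Dcc, the attractive netrin receptor, rose by 3.64 (edgeR adjusted p = 0.000613) and Rtn4r, the Nogo receptor, by 3.59 (edgeR adjusted p = 0.00027). Mag, a myelin glycoprotein that inhibits axon growth, fell: its log2 fold change was -6.13 (edgeR adjusted p = 1.49e-05).

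D1 and D2 spiny neurons differed in 5 genes: D2 neurons had more of the netrin receptors Unc5d and Unc5c, and D1 neurons more Ntn1, Sema6d and Robo1. Of 30 axon guidance genes tested 5 passed, 16.7%, against 2.91% of 8131 genes, with 3 higher (1.38% of all genes) and 2 lower (1.54%) in D1 neurons. Unc5d passed the low-count filter through D2 neurons alone, and Ntn1, Sema6d and Robo1 through D1 neurons alone. This fixes the direction of all of the 5 but Unc5c, which met the filter in both classes. The lack of overlap of Unc5d, Ntn1 and Sema6d comes with it. Unc5d stood at 0, 5.13 and 9.81 CPM in D1 neurons of libraries 1, 2 and 3 and at 24.7, 42.2 and 43 in D2 neurons (-2.85 ± 0.30 on the log2 scale, SE, with an edgeR adjusted p of 1.81e-12). All 3 D2 values were above all 3 D1 values. Unc5c, a related netrin receptor, was at 29.3, 25.3 and 28 in D1 and 37.1, 43.5 and 62.7 in D2 neurons (-0.86 ± 0.21 on the log2 scale, SE, with an edgeR adjusted p of 0.00474). Its ligand gene Ntn1 (netrin-1) went the other way, with 16.7, 30.4 and 25.2 CPM in D1 and 12.4, 8.19 and 8.95 in D2 neurons (1.64 ± 0.31 on the log2 scale, SE, with an edgeR adjusted p of 0.000115). Here too the groups did not overlap.

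Sema6d, a transmembrane semaphorin that binds plexin-A receptors, stood at 25.1, 35.6 and 37.9 CPM in D1 and 12.4, 14.5 and 5.37 in D2 neurons (1.5 ± 0.28 on the log2 scale, SE, with an edgeR adjusted p of 6.45e-05). Robo1 stood at 37.6, 54.5 and 75.7 and 12.4, 34 and 39.4 (0.78 ± 0.19 on the log2 scale, SE, with an edgeR adjusted p of 0.00783), and its groups overlapped across libraries although D1 was above D2 within each. The other 25 genes tested, among them Epha4, Epha5, Epha7, Efnb2, Efnb3 and Plxna2, had log2 fold changes between -0.44 and 0.60, and none passed. Over all 30 the median was 0.02, and over all genes -0.01. Of 33 other guidance genes tested 3 passed, Ablim1 higher in D1 neurons and Flrt3 and Rtn4 lower.

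The Unc5d call held in all 8 alternatives in which the gene was tested, with edgeR or DESeq2 adjusted p between 9.56e-15 and 0.0162. The other calls were less firm. With DESeq2, and with edgeR without the library as block, 1 gene passed (0.713% and 0.332% of all genes did). Without library 2, 1 passed (1.43%), and without library 3, 3 passed (1.32%). No axon guidance gene passed among cells gated on 1 more marker (1.14% of all genes did). There 25 were tested and 3 had an unadjusted p under 0.05.

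The Tshz1-Pcdh8 neurons, which carry Drd1 at 621 CPM, differed from D1 neurons in Ntng1 and in EphA receptors. Of 17 genes tested 4 passed, 23.5%, against 1.33% of 5352, with 1 higher (0.747% of all genes) and 3 lower (0.579%). Ntng1 was at 96.1, 88.7 and 127 CPM in Tshz1-Pcdh8 neurons and 37.6, 18.3 and 32.2 in D1 neurons (2.10 ± 0.27 on the log2 scale, SE, with an edgeR adjusted p of 0.00919). Epha7 was at 96.1, 78.8 and 35 against 109, 165 and 144 (-1.34 ± 0.25 on the log2 scale, SE, with an edgeR adjusted p of 0.0296) and Epha5 at 96.1, 102 and 83.2 against 129.7, 179 and 189 (-0.94 ± 0.20 on the log2 scale, SE, with an edgeR adjusted p of 0.0496). Epha4 also passed, with 288, 112 and 78.8 against 238, 229.7 and 195 (-1.07 ± 0.20 on the log2 scale, SE, with an edgeR adjusted p of 0.0424), but library 1 went the other way. The groups did not overlap for Ntng1, Epha7 and Epha5. Ntng1 passed the low-count filter through Tshz1-Pcdh8 neurons alone and Epha7 through D1 neurons alone, which limits what their direction shows. The median over the 17 was -0.24 and over all genes -0.02, and none of 25 other guidance genes passed (5 had an unadjusted p under 0.05, and DESeq2 called 0).

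These calls depended on the libraries. Library 1 held only 11 such neurons, in which 1 UMI is worth 96.1 CPM, so its value for a gene is a small multiple of that. Without library 1, 9 genes passed, against 2.76% of all 7689 genes tested. Without library 2 or library 3, 0 passed edgeR's test (7 had an unadjusted p under 0.05 in each). There 0 of all 5024 and 0 of all 5514 genes tested passed too. DESeq2 on all libraries called 1 gene, and so did edgeR without the library as block (0.99% and 0.635% of all genes). Sema5b, a transmembrane semaphorin, was at 0, 69 and 48.2 CPM against 12.5, 13.1 and 21 in D1 neurons and had too few counts to test. Plxna4 was at 0, 95.2 and 127 against 25.1, 44.8 and 60.3, and Robo1 at 0, 95.2 and 127 against 37.6, 54.5 and 75.7. In both, library 1 went against the other libraries, and neither passed (edgeR adjusted p of 0.111 and 0.327).

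Glutamatergic neurons carried more Epha5, Unc5d and Sema7a and less Robo1, Efnb3 and Ephb1 than spiny neurons. Of 29 genes tested 10 passed, 34.5%, against 15.9% of 7420, with 7 higher (8.95% of all genes) and 3 lower (6.98%). Epha5, the most abundant axon guidance gene of these neurons, was at 387, 461 and 712 CPM against 134, 176 and 175 in all spiny neurons (1.69 ± 0.20 on the log2 scale, SE, with an edgeR adjusted p of 0.000411). Unc5d was at 63, 84.5 and 116 against 12.2, 17.2 and 26.7 (2.26 ± 0.24 on the log2 scale, SE, with an edgeR adjusted p of 0.000235), and Sema7a, a semaphorin tethered by a lipid anchor, at 117, 36.2 and 53.7 against 16.3, 13.6 and 11.3 (2.05 ± 0.33 on the log2 scale, SE, with an edgeR adjusted p of 0.00238). None of these 3 overlapped between the groups. Unc5d and Sema7a passed the low-count filter through glutamatergic neurons alone, which limits what their direction shows.

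Robo1 had 5 UMIs in all glutamatergic neurons, at 0, 4.83 and 6.19 CPM against 24.4, 50.5 and 70.0 (-3.47 ± 0.43 on the log2 scale, SE, with an edgeR adjusted p of 0.00039). Efnb3 was at 63, 31.4 and 8.26 against 156, 121 and 80.7 (-2.10 ± 0.33 on the log2 scale, SE, with an edgeR adjusted p of 0.00214) and Ephb1, a receptor of B-class ephrins, at 27, 9.66 and 31 against 116, 44.3 and 83.3 (-1.74 ± 0.30 on the log2 scale, SE, with an edgeR adjusted p of 0.00352). Nrp2, a neuropilin, was higher at 72, 96.6 and 111 against 6.09, 50.7 and 44 (1.39 ± 0.32 on the log2 scale, SE, with an edgeR adjusted p of 0.016). Robo1, Efnb3 and Ephb1 passed the low-count filter through spiny neurons alone, and Nrp2 through glutamatergic neurons alone. The median over the 29 genes was 0.03, and over all genes -0.02. Of 34 other guidance genes 10 were higher and 3 lower, with Rtn4r at 4.65 (edgeR adjusted p = 9.2e-05) and Srgap1, an effector of Robo signalling, at -2.85 (edgeR adjusted p = 0.00267).

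Library 1 stood apart in glutamatergic neurons. Ntng1 was at 9.0, 143 and 196 CPM in libraries 1, 2 and 3, Robo2 at 27, 203 and 171 and Sema6d at 9.0, 67.6 and 61.9. These 3 passed as higher than in spiny neurons (1.89, 1.22 and 1.18 on the log2 scale), although library 1 had the opposite direction. Slit1, at 108, 0 and 16.5, and Unc5a, at 171, 33.8 and 51.6, were highest in library 1. Class markers also differed between libraries: Neurod6 was at 288, 89.4 and 114 CPM, Slc17a7 at 2429, 1017 and 1628 and Slc17a6 at 9.0, 99 and 51.6. Their part in these results was not tested. Without library 1, 25 genes passed (24.2% of all genes did), and without library 2, 5 (6.27%). Without library 3, 0 passed in edgeR (2.73% of all genes), and 10 had an unadjusted p under 0.05. DESeq2 on all libraries called 7 (10.5%). With all 3 libraries but no block, 6 passed (11.2%).

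**Figure D3:**
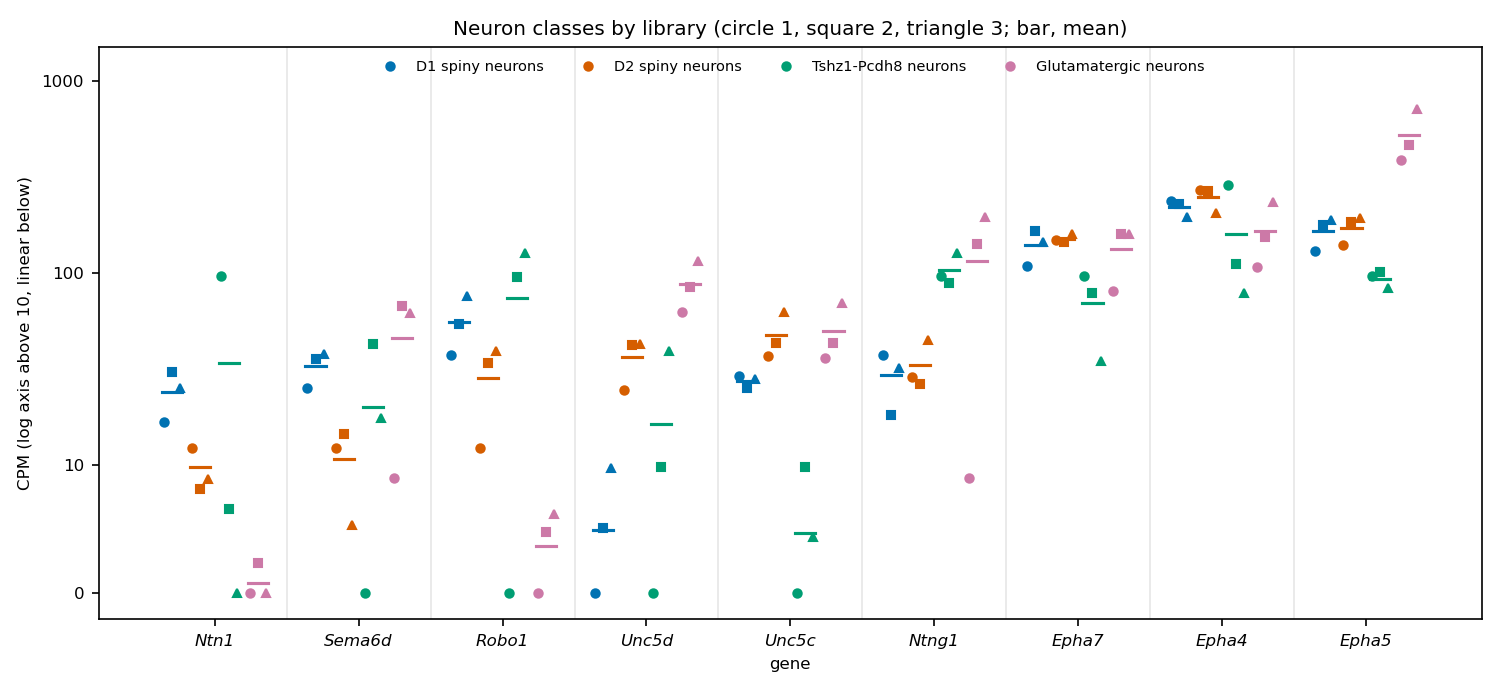
CPM (y axis, logarithmic above 10) of 9 axon guidance genes in 4 neuron classes, 1 point per library and a bar at the mean. Unc5d lies higher in D2 than in D1 neurons and highest in glutamatergic neurons, and Ntng1 in library 1 of the glutamatergic neurons lies far below its other 2 values.

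The interneurons were too few to test, and their levels are pooled over libraries with exact Poisson intervals that cover counting error only. In 35 neurons with parvalbumin markers Epha4 was at 446 CPM (95% interval 332 to 586), Efna5 at 131 CPM (95% interval 73.4 to 216) and Sema5a at 114 CPM (95% interval 60.5 to 194). In 26 neurons with Sst and Npy markers Epha5 was at 449 CPM (95% interval 298 to 649), Unc5d at 144 CPM (95% interval 66 to 274) and Efna5 at 112 CPM (95% interval 45.1 to 231). Efna5 was at 11.8 ± 4.08 CPM in D1 and 25.2 ± 11.1 in D2 neurons (SD, n = 3). In 58 T cells the highest gene was Sema4a with 4 UMIs, and in 27 fibroblasts Plxnb2 with 7.

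Against the mean of the other classes, the largest rises in D1 neurons were those of Sema3e, Ephb6, a kinase-dead Eph receptor, Unc5a and Efna3, and in D2 neurons those of Unc5d, Sema3e, Epha7 and Efna3. Sema3e was at 41.8, 58.6 and 50.5 CPM in D1 and 74.2, 46.6 and 59.1 in D2 neurons, and Efna3 at 41.8, 63.1 and 78.5 and 57.7, 59.2 and 84.2. Ephb6 was at 92, 43.2 and 49.1 and 94.8, 18.9 and 44.8, and Unc5a at 66.9, 34.6 and 35 and 49.4, 37.8 and 30.4. All 4 overlapped between D1 and D2 neurons. In glutamatergic neurons Epha10 was raised beside Unc5d, Ntng1 and Epha5, but its values of 0, 70.0 and 43.3 CPM spread widely and overlapped with the 96.1, 36.1 and 4.38 of Tshz1-Pcdh8 neurons.

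A single gene of each larger family, that with the highest mean CPM when the 11 classes weigh equally, is given with its order of classes (mean ± SD CPM over 3 libraries). Epha5 was highest in glutamatergic neurons at 520.1 ± 170.3, above D2 neurons at 172 ± 28.4 in every library, and D2 overlapped with D1 at 166 ± 31.8. Plxna2, a receptor for class 3 and class 6 semaphorins, was highest in D1 neurons at 157 ± 18.5 and overlapped with Tshz1-Pcdh8 neurons at 140.1 ± 41.9. Nrp1, the co-receptor of class 3 semaphorins and of VEGF-A, was highest in endothelial cells at 193 ± 46.9 and overlapped with mural cells at 153 ± 34.7. For these receptors only Epha5 had a highest class that stood clear of the next.

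Sema6d was highest in mural cells at 122 ± 52.4 and overlapped with oligodendrocytes at 109.6 ± 19.2. Slit2 was highest in OPC at 43 ± 23.8, on only 4 UMIs, and overlapped with glutamatergic neurons at 18.4 ± 8.95. Unc5c was also highest in OPC, at 52.9 ± 58.1, and overlapped with glutamatergic neurons at 49.9 ± 18. Ntng1, at 116 ± 96.3, and Robo2, at 134 ± 93.8, were highest in glutamatergic neurons and overlapped with Tshz1-Pcdh8 and D2 neurons respectively. Of the 68 genes, 15 (22.1%) had a highest class that did not overlap with the next one, as did 15.1% of the 15647 features with at least 10 UMIs. The 15 were Efna1, Ephb4, Robo4, Sema3c, Sema3g, Sema6a and Sema7a in endothelial cells, Efnb3 and Unc5b in oligodendrocytes, Epha5, Robo3 and Unc5d in glutamatergic neurons, Plxnb2 and Plxna4os1 in microglia and Sema3d in OPC.

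The 29 genes not tested across classes were sparse, with 11 to 547 UMIs in filtered cells and a median of 169, against a median of 651 for the 39 tested. They held 3 Slits, which attract or repel axons through Robo receptors, 4 ephrins, 7 Eph receptors, 3 plexins, Robo3 and 11 semaphorins. The lowest were Epha1, with 5 UMIs in neurons and 2 in other cells, Efna4, with 0 and 8, and Sema3b, with 9 and 10. Others were better counted in the broader comparison of neurons with other cells. There Sema3a, the classic collapse factor of growth cones, was higher in neurons by 3.04 (edgeR adjusted p = 0.000258) on the log2 scale, and Sema3f, a ligand of neuropilin-2, by 2.31 (edgeR adjusted p = 0.00274).

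Oligodendrocytes held the highest levels of Efnb3 and Unc5b, and Plxnb3 was high in them and in OPC. Efnb3, which encodes the ephrin-B3 of myelin, stood at 519, 354 and 314 CPM in libraries 1, 2 and 3, above every value in D1 neurons (163, 124 and 82.7). Unc5b was at 119, 70.0 and 63.8 CPM, and endothelial cells came next at 26.1, 20.6 and 32.3. Plxnb3 was at 66.6, 50.6 and 31.9, and overlapped with OPC at 68.8, 65.7 and 0, a level that rests on 4 UMIs. Efna1, Ephb1, Sema6a and Sema6d were raised as well, with Sema6d at 104, 131 and 94.1 CPM and Ephb1 at 82.2, 78.2 and 70.4, a level that overlapped with D1 neurons (121, 46.1 and 104).

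OPC, the dividing precursors of oligodendrocytes, had more Ntn1 and Epha5 and less Unc5b, Efnb3 and Ephb1 than oligodendrocytes. Of 10 genes tested 5 passed, against 25.4% of 4428, with 2 higher (9.98% of all genes) and 3 lower (15.4%) in OPC. The median was -0.95 against -0.29. Ntn1 was at 275, 197 and 38.3 CPM in OPC and 0, 2.98 and 0.818 in oligodendrocytes (5.66 ± 0.66 on the log2 scale, SE, with an edgeR adjusted p of 0.000452), and Epha5 at 138, 131 and 230.1 against 13.7, 14.9 and 5.73 (3.39 ± 0.55 on the log2 scale, SE, with an edgeR adjusted p of 0.00396). Neither overlapped between the classes. Unc5b had 0 UMIs in OPC and 233 in oligodendrocytes. It passed the low-count filter through oligodendrocytes alone, as did Efnb3 and Ephb1, while Ntn1 and Epha5 passed it through OPC alone. This fixes the direction of all 5, so the split into 2 higher and 3 lower is not a separate result. Unc5b was at least 2.84-fold lower when OPC are given 3 counts over the class (edgeR adjusted p = 0.0144). Efnb3 had 3 UMIs in OPC, and oligodendrocytes were higher by a ratio of 13.7 (95% counting interval 4.67 to 66.5), with an edgeR adjusted p of 0.000452. Ephb1 had 1 UMI, and its ratio was 8.51 (95% counting interval 1.51 to 338), with an edgeR adjusted p of 0.0156.

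Sema3d, a secreted semaphorin, was at 138, 21.9 and 95.9 CPM in OPC and at no more than 3.0 on average in any other class, but on 8 UMIs it was not tested. The 67 OPC gave 112348 UMIs in all, and 1 UMI in library 1 is worth 68.8 CPM. Without any 1 library, with at least 1000 UMIs per cell, or with 1 more marker required, no axon guidance gene passed edgeR's test. In these settings 5 to 8 had an unadjusted p under 0.05, and 0 of all genes passed. The UMI and marker settings left too few OPC in library 1, so both used libraries 2 and 3. DESeq2 called 5 (18.2% of all genes) and Leiden clusters of the cells, made without these genes, 8 (31.6%). Of 19 other guidance genes tested 12 passed, 6 in each direction, with Dscam at 5.02 (edgeR adjusted p = 0.000357) and Mag at -7.80 (edgeR adjusted p = 9.28e-05).

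Among astrocytes, which line synapses and vessels, the plexin-B receptors Plxnb1 and Plxnb2 were the highest of the raised genes. Plxnb1, a receptor of Sema4d, stood at 247, 94.9 and 133 CPM in astrocytes and at 8.37, 5.45 and 7.01 in D1 neurons, and it was raised over the other classes in all 10 alternatives. Plxnb2, a receptor of class 4 semaphorins, stood at 140.2, 57.4 and 124, and microglia had 145, 219.5 and 157, above every astrocyte value. Sema4a was raised at 29.2, 46.9 and 42.3 CPM and overlapped with D1 neurons at 29.3, 37.5 and 21. Robo1 and Ephb1 were raised over the mean of the other classes, with Robo1 at 29.2, 19.9 and 36.7 CPM, against 24.4, 50.5 and 70.0 in spiny neurons.

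Microglia and the macrophages both had raised Sema4d, Nrp1, Plxnb2 and Plxna4os1. Sema4d, an immune semaphorin also known as CD100, was at 43.6, 83.6 and 83.2 CPM in microglia and 86.9, 70.4 and 47.2 in macrophages, which overlapped, against 35.2, 27.5 and 24.5 in oligodendrocytes. Nrp1 was at 145, 94.1 and 129 in microglia and 65.2, 99.7 and 110.2 in macrophages. Plxna4os1 was at 58.1, 167 and 74 in microglia and 36.2, 23.5 and 0 in macrophages. Whether counting used strand is not given in the sources used here, so its reads cannot be told apart from any of Plxna4, which had 7 UMIs in microglia against 28 for the antisense gene. Epha2 had 9 UMIs in microglia, at 0, 20.9 and 64.7 CPM. Sema4a was at 58, 46.9 and 62.9 CPM in macrophages with 0 UMIs in microglia, and Plxnc1, the receptor of Sema7a, at 72.4, 64.5 and 15.7 with 0 in microglia. Microglia against macrophages was not tested.

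**Figure D4:**
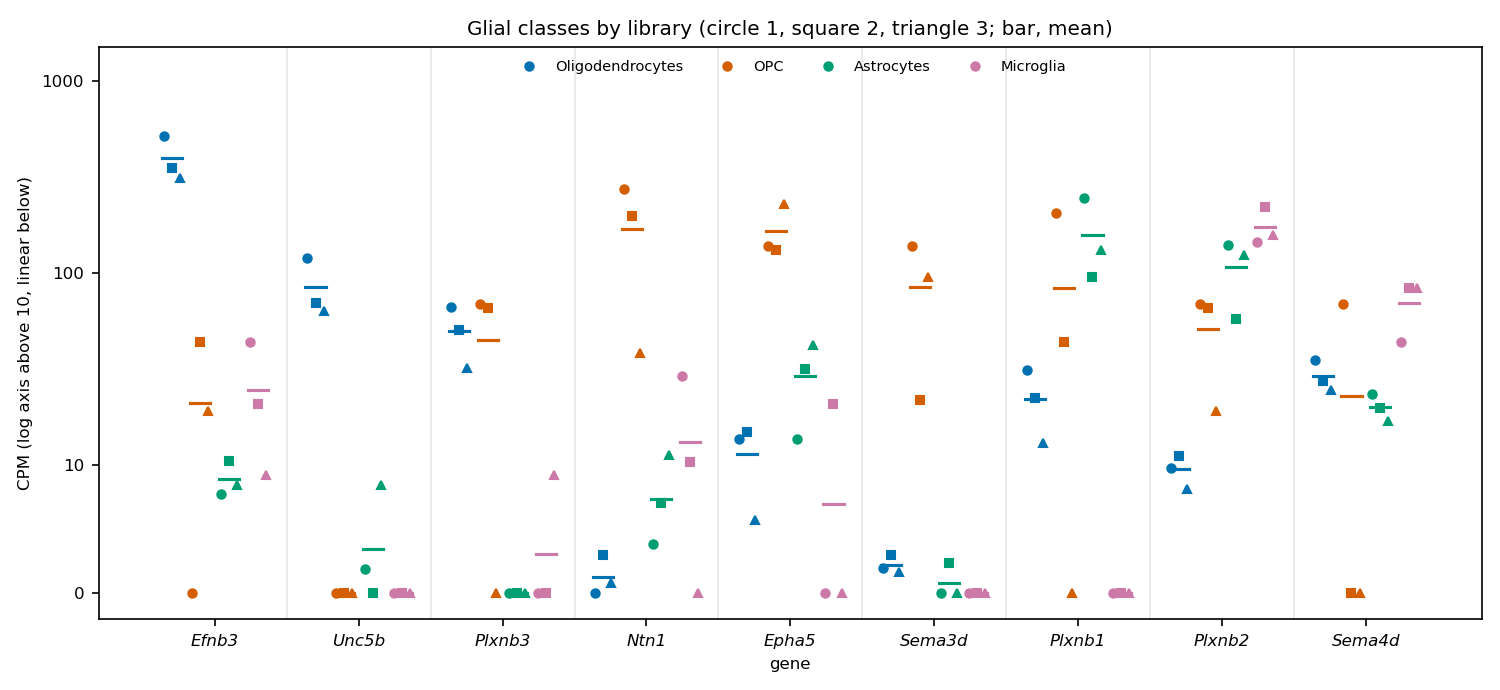
CPM (y axis, logarithmic above 10) of 9 axon guidance genes in oligodendrocytes, OPC, astrocytes and microglia, 1 point per library and a bar at the mean. Efnb3 and Unc5b are high in oligodendrocytes, Ntn1 and Sema3d in OPC, Plxnb1 in astrocytes and Plxnb2 in both microglia and astrocytes.

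Endothelial cells were the highest class, clear of the next, for 7 of the 68 genes (10.3%, against 2.49% of all features with at least 10 UMIs), among them the vascular receptors Robo4 and Ephb4 and the secreted semaphorins Sema3c and Sema3g. Sema3c, a secreted semaphorin, was at 177, 327 and 751 CPM in libraries 1, 2 and 3, with a mean of at most 11.2 in any other class. Sema3g was at 52.2, 73.6 and 48.5, and 1 UMI each was found in D1 neurons, D2 neurons and oligodendrocytes. Robo4 was at 125, 73.6 and 141 and Efna1, an ephrin-A first found as an endothelial gene, at 99.1, 91.3 and 96.9. Sema7a was at 151, 118 and 125 and Sema6a at 151, 147 and 101. Ephb4 was at 26.1, 32.4 and 48.5, above the astrocytes at 15.6, 2.34 and 5.64. Efna1 was the steadiest of these over the libraries, at 95.8 ± 4.01 CPM (SD, n = 3), and Sema3c, at 418 ± 298, the most variable.

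Against mural cells (pericytes and smooth muscle cells), the endothelial cells differed in 8 of 9 genes tested, 88.9%, against 34.2% of 3293 genes, with 7 higher (18.9% of all genes) and 1 lower (15.2%). The median was 3.68, or 3.52 with genes at 0 in mural cells set to their bound, against 0.03 for all genes. Robo4 and Efna1 had 0 UMIs in 318870 mural UMIs. Both passed the low-count filter through endothelial cells alone, as did Sema3c, Sema7a, Sema6a, Epha4 and Plxna2. Sema6d passed it through mural cells alone. This fixes the direction of all 8, so the split into 7 and 1 is not a separate result. The 88.9% and the median carry the same limit. Robo4 and Efna1 were at least 11.5-fold and 10.1-fold higher in endothelial cells with 3 counts given to the mural class (edgeR adjusted p = 7.03e-05 and 0.000105). Sema3c had 1 mural UMI, a ratio of 136 (95% counting interval 24.2 to 5370.0), with an edgeR adjusted p of 5.09e-08. Sema7a had 2, a ratio of 20.5 (95% counting interval 5.52 to 171), and Sema6a 3, a ratio of 14.2 (95% counting interval 4.72 to 69.9). Epha4 was higher too, at 57.4, 103 and 68.6 against 0, 6.04 and 8.28 CPM, as was Plxna2 at 83.5, 64.8 and 64.6 against 0, 24.1 and 0 (2.37 ± 0.68 on the log2 scale, SE, with an edgeR adjusted p of 0.0108).

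Mural cells had the highest mean levels of Sema6d, Ntn4 and Epha2. Sema6d was at 92.5, 90.5 and 182 CPM in mural and 10.4, 20.6 and 12.1 in endothelial cells (-2.91 ± 0.46 on the log2 scale, SE, with an edgeR adjusted p of 0.000103), with no overlap. Ntn4, a netrin of basement membranes, was at 92.5, 48.3 and 82.8 in mural cells and 15.6, 5.89 and 8.07 in endothelial cells, and Ntn1 at 61.7, 84.5 and 49.7. Both were raised over the mean of the other classes. Epha2, an Eph receptor of epithelia and vessels, was raised as well, at 123, 18.1 and 66.3 CPM on 15 UMIs, and so was Plxnb1 at 0, 60.4 and 49.7. Nrp1 was the gene that did not pass between the vascular classes (0.47 ± 0.27 on the log2 scale, SE, with an edgeR adjusted p of 0.211). Without library 2, 3 genes passed, and without library 3, 4 (14.8% of all genes in each). Among the 8, Sema3c, Sema7a and Epha4 passed in every alternative in which they were tested. Of 9 other guidance genes 5 passed, with Ablim1 higher in endothelial cells by 3.83 (edgeR adjusted p = 3.09e-08) and Rgma, a repulsive guidance molecule, lower, with -4.00 (edgeR adjusted p = 0.000233).

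**Figure D5:**
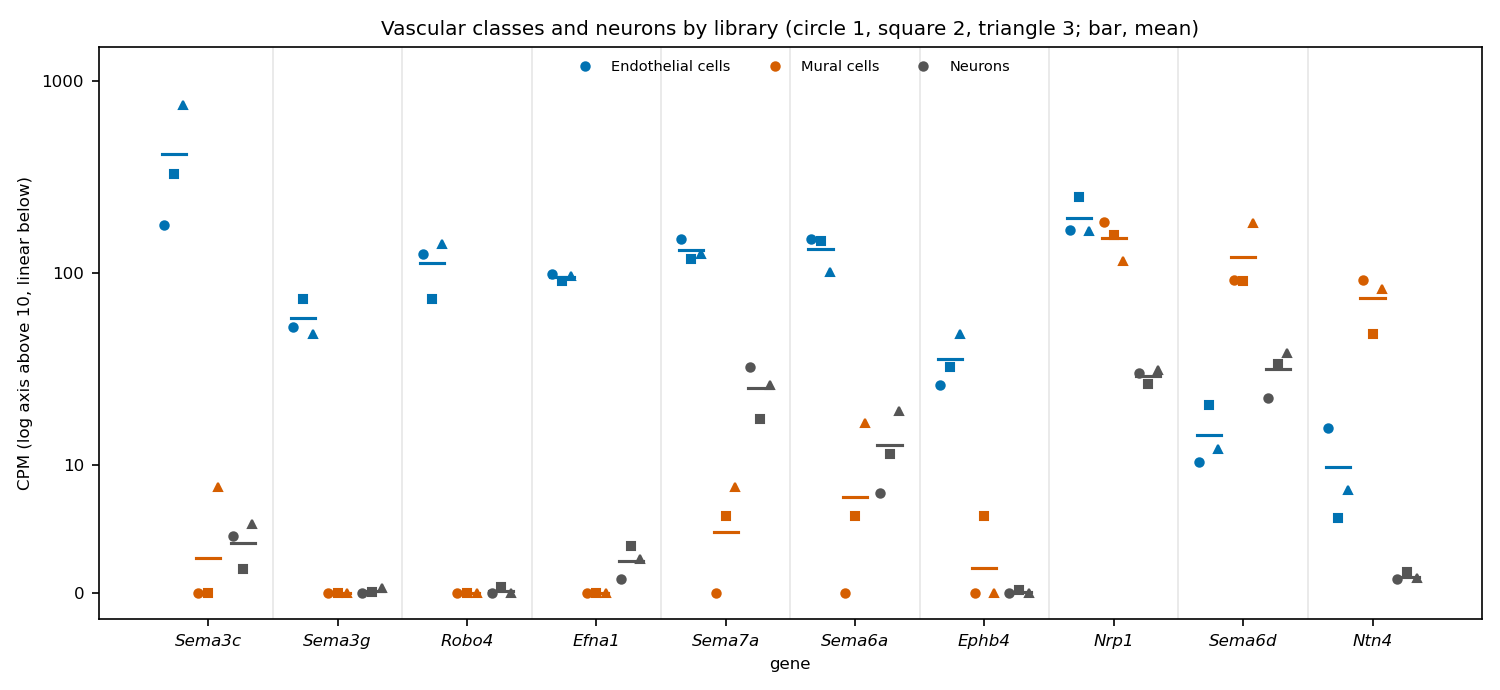
CPM (y axis, logarithmic above 10) of 10 axon guidance genes in endothelial cells, mural cells and neurons, 1 point per library and a bar at the mean. The 7 genes on the left are high in endothelial cells in every library, Sema6d and Ntn4 are highest in mural cells, and Nrp1 overlaps between both.

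Labelled spiny neurons, those with at least 1 UMI of the mCherry reporter (24, 374 and 50 cells in libraries 1, 2 and 3), were compared with the 390, 1461 and 419 that had none. None of 35 axon guidance genes passed edgeR's test, and none of 8761 genes did (0%). DESeq2 called 0, and 1 of the 35 had an unadjusted p under 0.05 in edgeR, Efnb3 at -0.38 (edgeR adjusted p = 0.853). Log2 fold changes ran from -0.61 to 0.61 with a median SE of 0.25. The mCherry UMI was also found in 5.83% of non-neuronal cells (16.5% of spiny neurons), and labelled cells were deeper (median 1252, 3089 and 3622 UMIs against 1107, 2399 and 2564). With unlabelled cells matched on UMIs 11 genes were tested and none passed. For 28 of the 35 genes the approximate 95% interval of the log2 fold change, taken from its SE, lay between -1 and 1, and for the other 7 it reached further, so equal levels are not shown.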

How the data were processed

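Single cells of 3 libraries were made with the 10x Genomics 3′ v2 kit, per the labels. The authors deposited raw UMI counts of every gene in each cell as 1 pooled matrix from Cell Ranger 3.0, with the build mm10, per the submitters' processing notes. Cells needed 300 genes or more and a mitochondrial share of UMIs no higher than 20%. A cell entered a class with at least 2 of its markers and 2 times as many as for any other class. This gate was set after seeing the data and left out 2004 cells that also met a second class; no doublet caller was run. Counts were summed per library and class and tested with edgeR 4.0.16 (quasi-likelihood, robust prior, TMM, filterByExpr, library as block, arms of at least 10 cells), with Benjamini-Hochberg adjustment over all genes at 0.05. Classes of 1 library share its cells, hence the block. Between 2 classes a gene can pass the low-count filter through 1 class alone, which fixes its direction when it is called. DESeq2 1.42.0, scanpy 1.11.5 clusters and the settings listed in the closing section were alternatives. The test was checked on simulated counts. Genes named are up to 10 per direction and comparison that passed with 1 direction in every library, up to 4 per class and that with the highest mean CPM over classes per family; others were chosen after their values were seen. The genes and lists were chosen with earlier results of these data known. RefSeq windows matched 58 of 68 genes.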

Additional observations from a re-analysis of the deposited data

How the results depend on the processing

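The library block, the filter on low counts, the prior, the gate, the cell depth and the libraries were varied one at a time, and no named gene changed direction in an alternative in which it was tested. Of the calls of single genes, 805 were kept and 83 lost. Of the counts of raised genes per class, 102 stayed within 1.5 times and 8 did not: 34 in D1 neurons and 14 in astrocytes with no filter, 7 (stricter gate) and 12 (without library 3) in Tshz1-Pcdh8 neurons, and in OPC 3 with at least 1000 UMIs, 9 with Leiden clusters, 3 without library 2 and 2 without library 3. The axon guidance genes that differed across classes numbered 61 of 68 tested with no filter on low counts, against 58.5% of all genes. Brackets below give the share of all genes called in the same setting. Between D1 and D2 neurons, DESeq2 gave 1 (0.713%), no replicate block 1 (0.332%) and the stricter gate 0 (1.14%). At the stricter gate 3 had an unadjusted p under 0.05, and leaving out 1 library gave 1 to 5 (1.32% to 2.23%). Between Tshz1-Pcdh8 and D1 neurons, DESeq2 gave 1 (0.99%), no replicate block 1 (0.635%) and the package-default prior 7 (3.7%). The stricter gate gave 0 (0.0162%), with 9 unadjusted. Leiden clusters gave 10 (5%), and leaving out 1 library 0 to 9 (0% to 2.76%). Between glutamatergic and spiny neurons, no filter gave 17 (8.09%), no replicate block 6 (11.2%) and Leiden clusters 16 (17.7%). There leaving out 1 library gave 0 to 25 (2.73% to 24.2%). Between OPC and oligodendrocytes, cells of at least 1000 UMIs gave 0 (0%), the stricter gate 0 (0%) and Leiden clusters 8 (31.6%). There leaving out any 1 library gave 0 (0%). Where these genes gave 0 in the Tshz1-Pcdh8 and OPC comparisons, at most 1 of all genes passed. In both comparisons the stricter gate left only libraries 2 and 3. Between endothelial and mural cells leaving out 1 library gave 3 to 11 (14.8% to 34.8%). Without the replicate block neurons against non-neuronal cells gave 46 (59.4%) and endothelial against mural cells 8 (24.7%). A fit without a library has fewer samples; the other causes were not tested. Cell numbers in OPC, mural and Tshz1-Pcdh8 classes limit the depth, and 29 of the 68 genes could not be tested across classes.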
